A study of Mus musculus with 60 samples.

Results

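Lgr4, Lgr5 and Lgr6 encode the family of R-spondin receptors, and their expression was examined in 60 carcinomas from 55 mice. All probe sets whose single gene symbol was one of these names were taken, which gave 6 of the 45101 probe sets on the array and 3 of the 18194 genes, and all 3 genes passed the filter on low values that left 12791. Every animal was an FVBBX mouse, from a cross of SPRET/Ei with FVB/N that was crossed again to FVB/N, and every tumour had been induced on the back skin with the carcinogen DMBA and the tumour promoter TPA. By label, 13 mice had spindle carcinomas, 35 had squamous cell carcinomas (SCC: 13 well, 13 moderately and 9 poorly differentiated) and 7 had tumours with no histology given. Of the spindle carcinoma mice, 12 carried the grade poor and 1 the grade moderate. A p53 mutation was recorded for tumours of 14 mice and not for those of 41, and the labels do not say whether all tumours were sequenced. Coats were agouti in 27 mice and white in 28. Mice with fewer than 2 papillomas at 20 weeks (17, resistant) were set against those with more than 7 (16, sensitive). The labels name no controls, and neither normal skin nor papillomas were analysed here. Ages at collection are not given in the labels used here. Tumours are named by group and number (SCC 24), and a mouse with several tumours by the first of them.

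R-spondins are secreted proteins that bind the large leucine-rich ectodomain of the LGR receptors and, together with them, clear the membrane ubiquitin ligases ZNRF3 and RNF43. These ligases otherwise remove Frizzled receptors from the cell surface, so that their clearance makes a cell more responsive to Wnt. In mouse skin, Lgr5 is known as a marker of stem cells in the lower hair follicle, and Lgr6 of stem cells above the follicle bulge that contribute to sebaceous gland and interfollicular epidermis, whereas Lgr4 is expressed more broadly in epithelia.

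RefSeq promoter windows (build GRCm38.p6), the 250 bases before a transcript start, were matched for 2 of the 3 genes, Lgr4 and Lgr6, and these are the sequences shown, with capitals for matches to any motif searched. The Lgr4 window lies at chr2:109917397-109917646 on the plus strand and ends at the base before the annotated gene. The Lgr6 window lies at chr1:135105277-135105526 on the minus strand, and 98 of its bases lie inside the annotated span of the gene, so only the 152 bases outside it, chr1:135105375-135105526, are printed. Both are written 5′ to 3′ along the gene.
Lgr4: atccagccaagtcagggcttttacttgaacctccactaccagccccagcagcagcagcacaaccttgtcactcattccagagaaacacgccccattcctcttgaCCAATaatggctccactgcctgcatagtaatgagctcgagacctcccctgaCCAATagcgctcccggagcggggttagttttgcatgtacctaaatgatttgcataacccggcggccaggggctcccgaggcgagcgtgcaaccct
Lgr6: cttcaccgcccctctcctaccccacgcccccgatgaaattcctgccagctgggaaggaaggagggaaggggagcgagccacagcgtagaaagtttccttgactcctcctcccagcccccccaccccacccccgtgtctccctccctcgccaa
Motifs were searched on both strands in the whole windows and in all 32851 windows of the table. The CCAAT box (CCAAT) had 2 matches in the Lgr4 window and 0 in the Lgr6 window, and 33.8% of all windows held it. A SOX core (ACAATG, which shares the letters CAAT with CCAAT) had 0 matches in the Lgr4 window and 1 in the Lgr6 window, inside the annotated gene and so not printed, and 10.7% of all windows held it. The TCF/LEF core CTTTGA (13.8% of windows), the TATA box TATAAA (12.4%) and the p53 half-site (7.13%) had no match in either window. G and C made up 55.6% of the Lgr4 window and 65.2% of the Lgr6 window, against a median of 52.4% over all windows.

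Values are log2 RMA expression values, in which a difference of 1 is a doubling, and a mouse with several tumours entered as their mean. Each gene had a pair of probe sets, of which the one with the higher mean was used. For Lgr4 this was 1433891_at, which was above the array median on 60 of 60 arrays, while 1453765_at was above it on 0. For Lgr5 it was 1450988_at, above the median on 43 arrays, while 1444519_at was above it on 1. For Lgr6 it was 1436218_at, and both it and 1427028_at were above the median on 50 of 60 arrays, with r = 0.86 between them. Lgr4 and Lgr5 were thus measured by a single usable probe set each, and Lgr6 by a pair. The study's authors noted SPRET/Ei variants within some probes of the Lgr5 probe set used and examined its single probes, and quantitative PCR, for that reason. They reported that the genotype effect on Lgr5 appeared in all its probes, and that quantitative PCR also found a difference between the parental strains. The part of these variants in the present values was not tested.

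The receptors differed in how much they varied between tumours. Over the 60 arrays, Lgr6 spanned 3.57 to 8.81 with an SD of 1.66, Lgr4 spanned 6.16 to 10.3 with an SD of 0.83, and Lgr5 spanned 3.59 to 6.69 with an SD of 0.69. Tumours labelled as from one mouse could lie far apart. In the mouse of spindle 8 and spindle 9, Lgr4 was 6.37 in one tumour and 10.3, the highest value of the series, in the other. On both arrays the sex markers did not match the labelled sex. Xist was 10.56 in spindle 8 and 5.49 in spindle 9, so that a shared mouse is in doubt. In the mouse of SCC 22 and SCC 23, Lgr6 was 4.63 and 7.08. The array of SCC 22 was near identical to that of SCC 21, labelled as another mouse (r = 0.9877), so this pair is in doubt too. In the mouse of SCC 3 and SCC 4, by contrast, Lgr6 was 4.22 and 4.15. The sample titles give these arrays a shared tumour number with a further suffix, as they do for no histology 6 and no histology 7. Both pairs may thus be samples of a single carcinoma, which the labels do not settle. The absolute difference was computed in the 5 mice with a pair of arrays. It ranged over 0.14 to 3.93 for Lgr4, 0.27 to 1.99 for Lgr5 and 0.07 to 2.45 for Lgr6.

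Some arrays need care. On 12 arrays (11 mice) Xist and Y-linked transcripts did not match the labelled sex, and 2 pairs of arrays labelled as different mice were near identical (SCC 18 with no histology 3, r = 0.9907; SCC 21 with SCC 22, r = 0.9877). The labelled histology was checked against epithelial markers: the mean of 14 epithelial adhesion genes was 4.23 in SCC 24 and 5.59 in SCC 21, against 6.76 or more in the other 33 SCC mice. SCC 24 and SCC 21 also held the lowest SCC values of Lgr4, at 6.42 and 6.16. A transcript difference in whole tumours cannot separate fewer cells of a type from less RNA per cell.

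Comparison of spindle carcinomas with SCC asked whether the receptors differ between mesenchymal-looking and keratinising tumours. None of the 3 receptors passed the threshold (adjusted p under 0.05 in limma over all genes), in a comparison that called 3391 of 12791 genes, or 26.5% (37.7% had an unadjusted p under 0.05). Lgr5 came closest: its lowest, median and highest values were 3.59, 4.46 and 6.12 in spindle mice, against 4.18, 5.03 and 6.69 in SCC mice. It averaged 4.66 ± 0.71 in spindle carcinomas and 5.11 ± 0.59 in SCC (SD, n = 13 and 35), a difference of -0.44 (SE 0.20, 95% interval -0.84 to -0.04, adjusted p = 0.0926), and 10 of 13 spindle mice lay below the SCC median. The groups overlapped widely, and Lgr5 was above the array median on 7 of 14 spindle arrays and 31 of 38 SCC arrays. Leaving out spindle 5 or spindle 11, the spindle mice with the highest Lgr5 (5.55 and 6.12), brought it to -0.52 (adjusted p = 0.0487) or -0.56 (adjusted p = 0.0287). Of 48 limma fits without 1 mouse, only these 2 passed, and the highest adjusted p was 0.205.

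Lgr4 averaged 7.55 ± 0.78 in spindle carcinomas and 7.95 ± 0.77 in SCC, a difference of -0.40 (SE 0.24, 95% interval -0.89 to 0.09, adjusted p = 0.229). Lgr6 averaged 6.55 ± 1.73 in spindle carcinomas and 6.14 ± 1.67 in SCC, a difference of 0.41 (SE 0.53, 95% interval -0.66 to 1.49, adjusted p = 0.61). Within spindle carcinomas Lgr6 was spread over the whole scale, with 6 mice between 4.13 and 5.50, 1 at 6.76 and 6 between 7.69 and 8.59. Against poorly differentiated SCC alone the Lgr6 difference was -0.31, of opposite sign, and 0 genes passed the threshold.

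**Figure D1:**
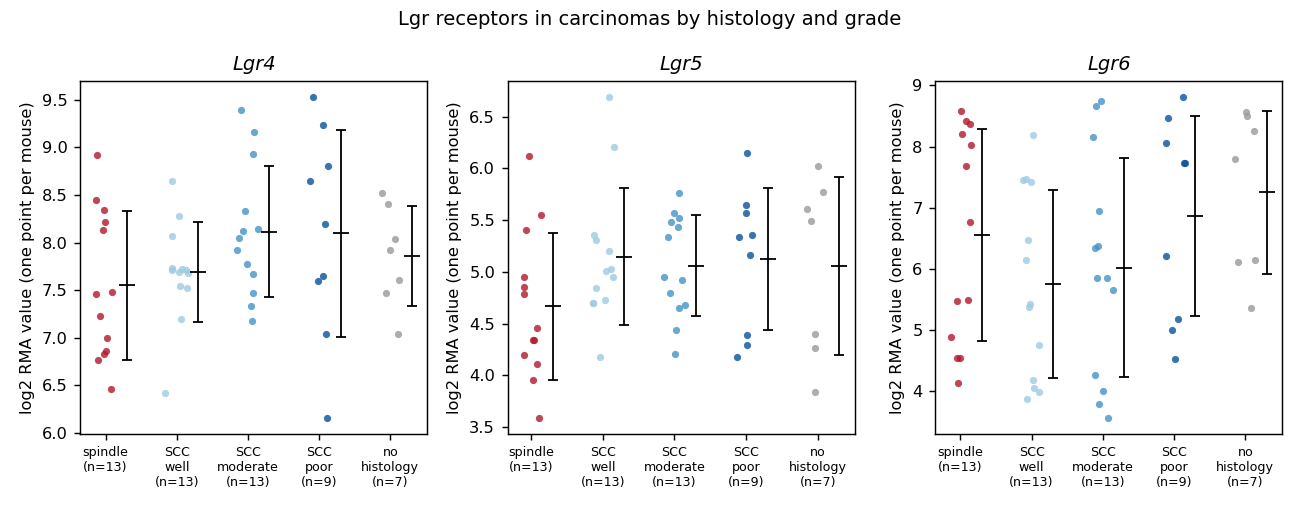
Log2 RMA value of Lgr4, Lgr5 and Lgr6 (y axes) by histology and SCC grade (x axes), one point per mouse, with mean and SD as black bars. Lgr5 averaged 4.66 in spindle carcinomas and 5.11 over all SCC, and Lgr6 spanned 4.13 to 8.59 in spindle carcinomas and 3.57 to 8.81 in SCC.

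Among the 20 Wnt pathway and skin stem cell genes named for this comparison by rule, calls went in both directions (15.5% of all genes were called higher in spindle carcinomas and 11.0% lower). Lrig1, a negative regulator of ErbB signalling that marks a stem cell population near Lgr6 cells in the follicle, was 8.59 ± 1.04 in spindle carcinomas and 7.02 ± 0.79 in SCC (difference 1.57, adjusted p = 2.00e-04). Krt15, a bulge and basal keratin, was 5.74 ± 1.12 in spindle carcinomas and 7.91 ± 2.07 in SCC (-2.17, adjusted p = 0.00515). Wnt4, a secreted Wnt of keratinocytes, fell by 2.34 (adjusted p = 2.05e-04), and Wnt3a by 0.38 (adjusted p = 0.00686). Of the Wnt receptors, 14 passed the filter, 4 rose and 1 fell: Fzd6, a Frizzled known for hair patterning, was lower by 1.17 on the log2 scale (difference -1.17, adjusted p = 0.00187), whereas Ryk and Ror2, receptors for non-canonical Wnts, rose by 0.44 and 0.49. Lrp6, a Wnt co-receptor, and Fzd2 also rose, by 0.28 and 0.63 (adjusted p = 0.0422 and 0.0288), but both lost the call with the mean of probe sets (adjusted p = 0.0813 and 0.084) and with origin as a covariate (0.0614 and 0.0557). Of 8 secreted inhibitors, 2 rose and 3 fell, with Dkk3 up by 1.28 (adjusted p = 0.00169). The calls of the other 4 inhibitors were lost without the arrays of unmatched sex markers, where Dkk2 was 1.14 higher (adjusted p = 0.0574) and Sostdc1, Sfrp1 and Sfrp2 differed by -1.55, -0.75 and -1.03 (adjusted p = 0.0739, 0.147 and 0.101). Of 14 beta-catenin pathway genes, 3 rose (Axin1 0.33, Tcf7l1 0.48, Tcf7l2 0.52) and 1 fell, and of 15 hair follicle and stem cell genes 3 rose and 1 fell. Tcf7l2 lost its call with the mean of its probe sets (0.23, adjusted p = 0.119).

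R-spondin transcripts themselves were near the floor of the array. Rspo1, Rspo2, Rspo3 and Rspo4, the ligands, reached at most 3.99, 4.52, 3.79 and 3.63 and were above the array median on 0, 1, 0 and 0 of 60 arrays. Rnf43 was above it on 3. Of the ligand and ligase list, Znrf3 alone passed the filter, at 6.26 ± 0.45 in spindle carcinomas and 6.18 ± 0.42 in SCC (difference 0.08, adjusted p = 0.716). The relatives Fshr, Tshr, Rxfp1 and Rxfp2, also leucine-rich repeat receptors, were above the median on 0 arrays.

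Epithelial and mesenchymal markers moved with histology, where 11.0% of all genes were called lower and 15.5% higher in spindle carcinomas. There, 14 of 14 epithelial adhesion genes and 8 of 8 basal keratinocyte genes fell and 6 of 10 mesenchymal genes rose. Adipocyte markers were lower as well, in 2 of the 3 that passed the filter (median difference -0.97, against 0.02 over all genes), and their mean was 7.00 in spindle carcinomas (6.33 to 8.30) and 8.13 in SCC (6.52 to 10.85). The epithelial adhesion mean ran over 4.63 to 9.62 in spindle mice and 4.23 to 10.17 in SCC mice. Their part in the receptor values was not tested, but the correlation of each receptor with these lists is given further on.

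Among SCC, the grades of differentiation were compared in a single model. In well, moderately and poorly differentiated SCC, Lgr6 averaged 5.76 ± 1.54, 6.02 ± 1.79 and 6.86 ± 1.64 (SD, n = 13, 13 and 9), and its medians were 5.43, 5.85 and 7.73. The difference of poor minus well was 1.10 (SE 0.69, 95% interval -0.30 to 2.51, adjusted p = 0.896), within the spread. Lgr4 averaged 7.69 ± 0.53, 8.11 ± 0.69 and 8.10 ± 1.09, and Lgr5 5.15 ± 0.66, 5.06 ± 0.49 and 5.12 ± 0.69, in the same order. No neighbouring grades differed beyond their spread for any receptor. limma called 0 of 12791 genes (0%) in each of the 3 grade comparisons, while unadjusted p was under 0.05 for 687 genes (5.37%) in poor minus well, 318 (2.49%) in moderate minus well and 1089 (8.51%) in poor minus moderate. p53 mutations were recorded in 1 well, 2 moderately and 5 poorly differentiated SCC mice, so grade and p53 overlapped in part.

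Of the 7 comparisons, the largest difference in log2 means was that of Lgr6 between p53 classes. Lgr6 was 5.01, 8.04 and 8.81 (lowest, median, highest) in the 14 mice with p53 mutant tumours, against 3.57, 5.65 and 8.67 in the 41 without a recorded mutation. Of the 14 mutant mice, 13 lay above the median of the others, and only SCC 30 lay below it, although the groups overlapped. The means were 7.67 ± 1.13 in mutant and 5.93 ± 1.59 in not mutant tumours, a difference of 1.74 or 3.33-fold (SE 0.45, 95% interval 0.83 to 2.64). The unadjusted p was 3.11e-04 and Lgr6 ranked 56th of 12791 genes, but the adjusted p of 0.0711 missed the threshold, which 36 genes (0.281%) passed, 28 of them higher (0.219%) and 8 lower (0.0625%) in mutant tumours, whereas 11.2% of genes had an unadjusted p under 0.05. The other Lgr6 probe set, 1427028_at, was 5.74 in mutant and 5.04 in not mutant tumours, a difference of 0.70 (SE 0.20, unadjusted p = 8.55e-04, adjusted p = 0.0998 with every probe set tested).

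The difference kept its direction in subsets. Within SCC, Lgr6 averaged 7.52 ± 1.30 in 8 mutant mice and 5.73 ± 1.56 in 27 others. Within spindle carcinomas, it averaged 8.13 ± 0.38 in 4 mutant mice and 5.85 ± 1.63 in 9 others, and the p53 by histology interaction was 0.49 (SE 1.04, adjusted p = 0.949). The animals came from 4 origins of the cross, F1BSF1 to F1BSF4, and the difference was 1.87, 2.16, 1.11 and 1.75 within them, with 2 to 5 mutant mice in each. Leaving out each mutant mouse in turn gave 1.65 to 1.94. The adjusted p passed the threshold in 2 of 14 fits, without SCC 26 (0.0496) and without SCC 30 (0.0438), and ran up to 0.126. Lgr6 in these mice was 6.21 and 5.01, below the mutant mean. Without the arrays of unmatched sex markers the difference was 1.77 with an adjusted p of 0.187.

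Neither Lgr4 nor Lgr5 passed by p53 label. Lgr4 averaged 8.09 ± 0.81 in mutant and 7.76 ± 0.72 in not mutant tumours (difference 0.33, SE 0.23, 95% interval -0.12 to 0.79, adjusted p = 0.622), and Lgr5 4.90 ± 0.61 and 5.03 ± 0.69 (difference -0.13, SE 0.21, 95% interval -0.54 to 0.28, adjusted p = 0.87). Pathway genes did not pass either. Of 14 beta-catenin pathway and target genes, 0 passed. An unadjusted p under 0.05 in limma was seen for 11.2% of all genes and for 7 of these 14, all higher in mutant tumours. Among them, Nkd2, an antagonist induced by Wnt, was 6.73 ± 1.33 in mutant and 5.81 ± 1.16 in not mutant tumours (difference 0.92, adjusted p = 0.279), and Sox9, a transcription factor of follicle stem cells, was 7.59 ± 0.56 in mutant and 6.97 ± 0.81 in not mutant tumours (difference 0.62, adjusted p = 0.248). Znrf3 was 6.52 ± 0.36 in mutant and 6.10 ± 0.39 in not mutant tumours (difference 0.42, adjusted p = 0.0983), and Axin2, a common target of the pathway, 5.71 ± 0.47 and 5.42 ± 0.42 (difference 0.30, adjusted p = 0.366). Basal keratinocyte genes averaged 10.52 in mutant and 10.07 in not mutant tumours, with ranges of 7.81 to 11.92 and 5.37 to 11.62, and 0 of 8 passed. Their part in the Lgr6 value was not tested.

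Coat colour split Lgr6 as well. FVB/N mice are albino, so coat follows the alleles inherited at pigment loci. Lgr6 was 3.80, 5.38 and 8.59 (lowest, median, highest) in agouti mice, against 3.57, 7.59 and 8.81 in white mice, and 22 of 27 agouti mice lay below the median of white mice. It averaged 5.67 ± 1.48 in agouti and 7.06 ± 1.56 in white mice, a difference of -1.40, or 2.63-fold lower in agouti mice (SE 0.40, 95% interval -2.20 to -0.59, unadjusted p = 9.76e-04). It ranked 10th of all genes by p, but 0 of 12791 genes (0%) passed after adjustment (adjusted p = 0.792 for Lgr6), and 770 genes (6.02%) had an unadjusted p under 0.05. The other probe set gave 4.89 in agouti and 5.53 in white mice (difference -0.64, SE 0.17, unadjusted p = 4.39e-04, adjusted p = 0.624). Within the 4 origins the agouti minus white difference of Lgr6 was -1.75, -2.09, -1.21 and -0.75. The 3 melanocyte genes that passed the filter did not pass the test in this comparison, with a median difference of 0.03.

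p53 and coat were then read in the same mice. Lgr6 averaged 7.29 ± 1.38 in p53 mutant agouti mice (n = 6), 7.96 ± 0.87 in p53 mutant white mice (n = 8), 5.20 ± 1.16 in p53 not mutant agouti mice (n = 21) and 6.70 ± 1.65 in p53 not mutant white mice (n = 20). The p53 difference was 2.08 within agouti and 1.26 within white mice, and 1.63 with coat as a covariate (adjusted p = 0.0627). The agouti minus white difference was -0.67 within mutant and -1.50 within not mutant tumours, and -1.29 with p53 as a covariate (adjusted p = 0.807). Whether the difference of one label depends on the other was not tested. For Lgr4 and Lgr5, agouti minus white was -0.22 (adjusted p = 0.902) and -0.16 (adjusted p = 0.937), but the sign was not the same in both p53 classes. For Lgr4 it was 0.61 within mutant and -0.47 within not mutant tumours, and for Lgr5 0.42 and -0.36. The p53 difference likewise was 0.91 within agouti and -0.17 within white mice for Lgr4, and 0.28 and -0.50 for Lgr5.

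**Figure D2:**
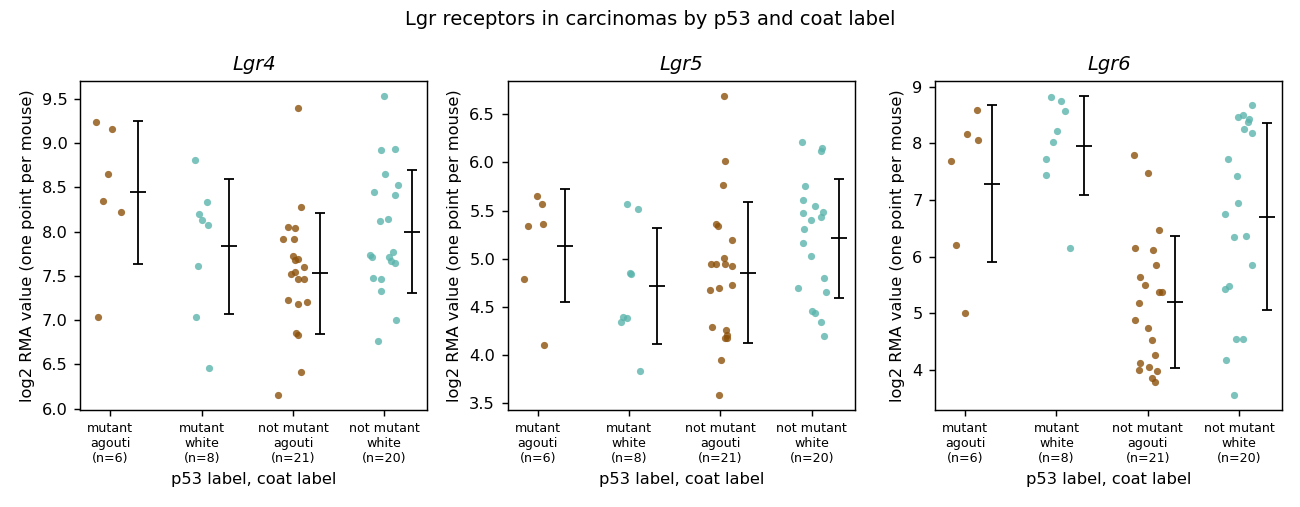
Log2 RMA value of each receptor (y axes) by p53 label and coat label (x axes), one point per mouse, with mean and SD as black bars. For Lgr6, agouti mice without a recorded p53 mutation averaged 5.20 and white mice with a mutation 7.96, with overlap between all groups.

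Papilloma number before malignant conversion showed no difference of the receptors beyond the spread. Lgr4 averaged 8.03 ± 0.89 in resistant and 7.84 ± 0.46 in sensitive mice (difference 0.20, 95% interval -0.29 to 0.69), Lgr5 4.90 ± 0.69 and 5.24 ± 0.72 (difference -0.34, 95% interval -0.82 to 0.15), and Lgr6 6.74 ± 1.57 and 6.35 ± 1.65 (difference 0.39, 95% interval -0.70 to 1.49; SD, n = 17 and 16). The adjusted p values were 0.85, 0.717 and 0.871. limma called 0 of 12791 genes (0%) here, and 1055 (8.25%) had an unadjusted p under 0.05. Counted over papillomas at 24 weeks with the same limits, the differences were 0.24, -0.27 and 0.71. The spindle minus SCC difference of each receptor was also compared between the sexes, and the interaction was -0.11 for Lgr4, -0.28 for Lgr5 and 0.59 for Lgr6 (adjusted p of 0.96 or more).

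**Figure D3:**
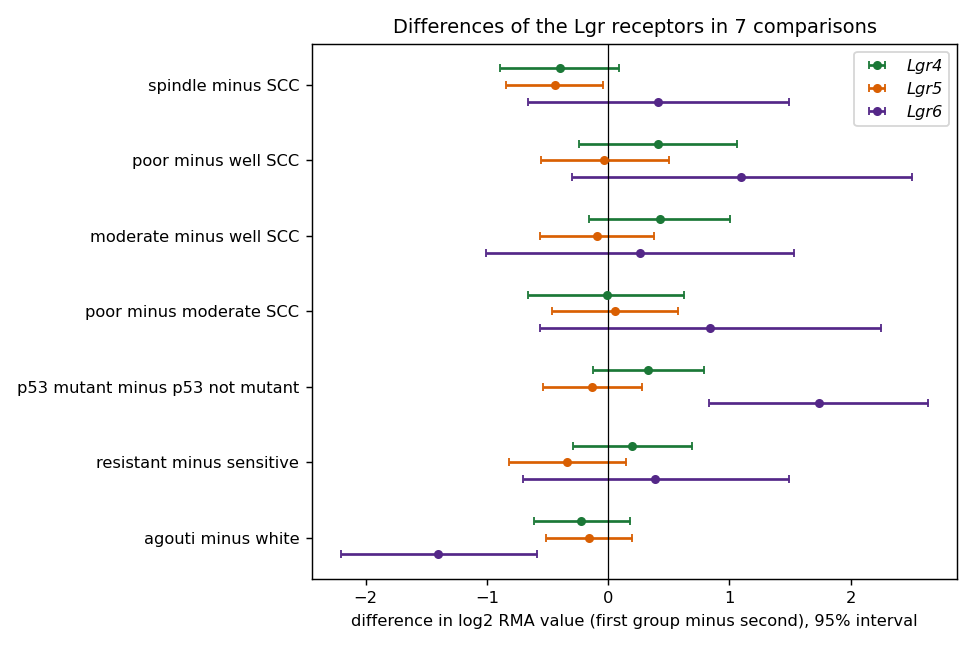
Difference in log2 RMA value (x axis) with its 95% interval for each receptor in 7 comparisons (y axis), the first-named group minus the second. The Lgr6 intervals for p53 (0.83 to 2.64) and coat (-2.20 to -0.59) and the Lgr5 interval for histology (-0.84 to -0.04) leave out 0, before adjustment over genes.

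The receptors were correlated with one another over the 55 mice, most closely Lgr4 and Lgr6. Many other genes had a higher r: with Lgr4, Lgr6 ranked 515th and Lgr5 1191st of 12790 genes. With Lgr5, Lgr4 ranked 973rd and Lgr6 1395th, and with Lgr6, Lgr4 ranked 234th and Lgr5 1307th. For Lgr4 and Lgr6 Pearson's r was 0.48 (permutation p = 2.4e-04, adjusted over 3 pairs 7.2e-04) and Spearman's rho 0.53 (p = 6.0e-05), and r was 0.50 without the 2 mice farthest from the median of Lgr4. Lgr4 and Lgr5 had r = 0.35 (permutation p = 0.00757, adjusted 0.0114) and rho = 0.39, with r = 0.38 without the 2 farthest mice. Lgr5 and Lgr6 had r = 0.30 (adjusted permutation p = 0.0246) and rho = 0.31, and this pair no longer passed without the mice of unmatched sex markers (r = 0.27, adjusted p = 0.0734). In SCC alone r was 0.54 for Lgr4 with Lgr6 (adjusted permutation p = 0.00219), 0.38 for Lgr5 with Lgr6 (0.0376) and 0.19 for Lgr4 with Lgr5 (0.28). In the 13 mice with spindle carcinomas it was 0.58, 0.28 and 0.47 for the same pairs, and none passed after adjustment. Within the 4 origins, r of Lgr4 with Lgr6 was 0.66, 0.29, 0.46 and 0.61 (n = 17, 8, 11 and 19). Differences between pairs or between tumour types were not tested.

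**Figure D4:**
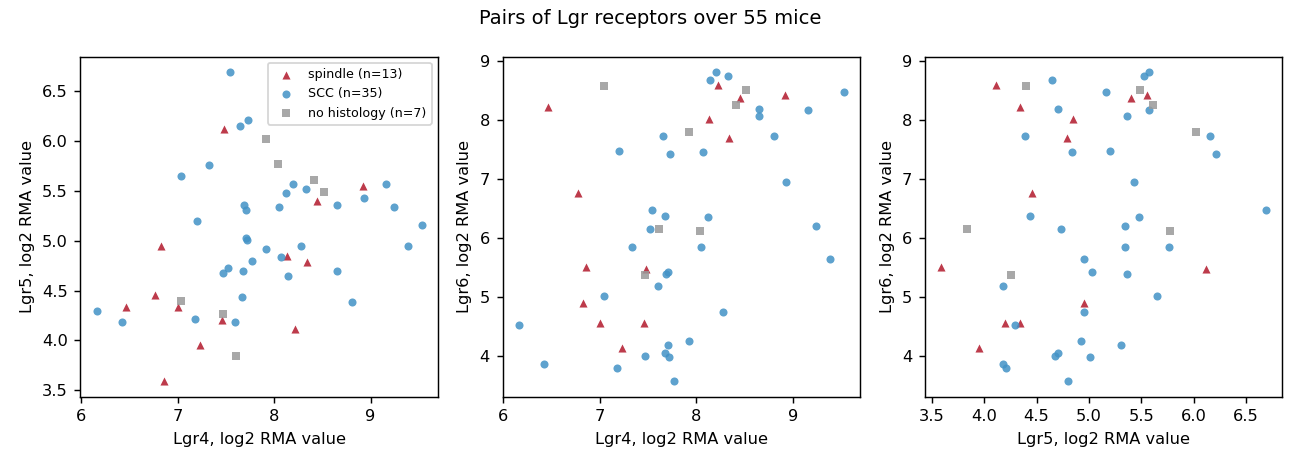
Log2 RMA values of each pair of receptors (x and y axes), one point per mouse, with spindle carcinomas as triangles, SCC as circles and tumours with no histology as squares. Pearson's r over the 55 mice was 0.35 for Lgr4 with Lgr5, 0.48 for Lgr4 with Lgr6 and 0.30 for Lgr5 with Lgr6.

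The receptors were also correlated with epithelial markers, Lgr4 with the highest r. Relations with 4 marker lists were computed for each receptor, 12 in all. The mean of 14 epithelial adhesion genes had r = 0.62 with Lgr4 (permutation p = 1e-05, the smallest that the permutations can give; adjusted 6.0e-05; rho = 0.49), 0.44 with Lgr5 (adjusted 0.00184; rho = 0.26, adjusted 0.0966) and 0.33 with Lgr6 (adjusted 0.0214; rho = 0.14, adjusted 0.319). The mean of 8 basal keratinocyte genes had r = 0.59 with Lgr4, 0.51 with Lgr5 and 0.46 with Lgr6 (adjusted permutation p of 6.0e-05, 3.2e-04 and 0.00106; rho = 0.55, 0.51 and 0.63). The mesenchymal mean had r = -0.47 with Lgr4 (adjusted permutation p = 0.00106), -0.20 with Lgr5 and -0.11 with Lgr6, and the hair follicle and skin stem cell list passed with none (r = 0.16, 0.18 and 0.27). Without the 2 mice farthest from the median of the list, r with the adhesion mean was 0.57, 0.43 and 0.26 for Lgr4, Lgr5 and Lgr6. Within the 4 origins, it ran from 0.45 to 0.71 for Lgr4, 0.19 to 0.68 for Lgr5 and -0.32 to 0.59 for Lgr6, so that the relation of Lgr6 with this list did not hold in every origin, nor without the mice of unmatched sex markers (r = 0.21). With the basal keratinocyte mean, r within origins ran from 0.49 to 0.75, 0.41 to 0.70 and 0.11 to 0.63 for Lgr4, Lgr5 and Lgr6, and with the mesenchymal mean from -0.59 to -0.21 for Lgr4.

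Tumour types were then read apart, with no test of the difference between them. In spindle carcinomas, Lgr4 and Lgr6 had r = 0.86 and 0.78 with the adhesion mean (adjusted permutation p = 0.00408 and 0.00672), and 0.82 and 0.74 without the 2 farthest mice. Lgr5 had r = 0.49 there (adjusted permutation p = 0.136). In SCC, Lgr4 had r = 0.53 with the adhesion mean and 0.52 with the basal keratinocyte mean (adjusted permutation p = 0.00464 for both), but without the 2 farthest mice, SCC 24 and SCC 21 for both lists, these were 0.20 and 0.18, so the relations in SCC rest on them. Lgr5 passed with neither list in SCC: r was 0.18 with the adhesion mean (rho = -0.16), and -0.25 without those mice, and 0.32 with the basal keratinocyte mean (rho = 0.28), and 0.01 without them. Lgr6 had r = 0.28 with the adhesion mean in SCC, and 0.06 without them. Lgr6 with the basal keratinocyte mean in SCC had r = 0.46 (adjusted permutation p = 0.00464) and rho = 0.67, and r = 0.45 without the 2 farthest.

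With the ligands, ligases and feedback genes, 21 relations were computed. Znrf3, the ligase that is itself a Wnt target, had r = 0.38 with Lgr4 (adjusted permutation p = 0.0337; rho = 0.46) and 0.41 with Lgr6 (adjusted 0.0288; rho = 0.41), but 0.09 with Lgr5. Without the 2 mice farthest from its median, r was 0.51 for Lgr4 and 0.38 for Lgr6. The relation with Lgr4 did not pass without the mice of unmatched sex markers (r = 0.37, adjusted permutation p = 0.093). Axin2 had r = 0.40 with Lgr6 (adjusted permutation p = 0.0288; rho = 0.41; 0.43 without the 2 farthest), 0.25 with Lgr4 and 0.26 with Lgr5. Within the 4 origins, r ran from -0.11 to 0.63 for Lgr4 with Znrf3 (below 0 in F1BSF3), 0.26 to 0.77 for Lgr6 with Znrf3 and 0.20 to 0.59 for Lgr6 with Axin2. Over all mice, no R-spondin and not Rnf43 passed with any receptor. In the 13 mice with spindle carcinomas, Lgr4 had r = 0.78 with Rnf43 (adjusted permutation p = 0.0136; rho = 0.68, adjusted 0.0958; 0.62 without the 2 farthest) and 0.79 with Axin2 (adjusted permutation p = 0.0204; rho = 0.82; 0.79 without the 2 farthest), and in SCC -0.07 and 0.06. In SCC, Lgr4 had r = 0.51 with Znrf3 (adjusted permutation p = 0.0374; rho = 0.59), and in spindle carcinomas 0.21. Rnf43 and the R-spondins lay near the floor of the array in nearly all tumours, as given above. For Lgr5, r with the hair follicle genes Krt71, Krt25, Msx2 and Gprc5d was 0.21, 0.21, -0.08 and 0.16 (adjusted permutation p of 0.26 or more over 4 relations), and rho was 0.31, 0.26, -0.03 and 0.17 (adjusted 0.0813 or more). Without the mice of unmatched sex markers, Krt71 and Krt25 passed by rho (0.40 and 0.35, adjusted permutation p = 0.0298 and 0.0369) but not by r (0.30 and 0.32, adjusted 0.0969 for both).

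Means of the other lists were set against the receptors after the values were known, as part of 45 relations with 15 lists. Means of 14 Wnt receptors and of 8 secreted Wnt inhibitors passed with Lgr4, Lgr5 and Lgr6 alike. With the Wnt receptors, r was 0.33, 0.45 and 0.48 (adjusted permutation p = 0.0303, 0.00221 and 0.00148). With the inhibitors, it was 0.38, 0.41 and 0.37 (adjusted permutation p = 0.0124, 0.00654 and 0.0154). Within origins, r with the Wnt receptors ran down to 0.10, 0.10 and -0.14. The beta-catenin pathway and target mean had r = 0.66 with Lgr6 (adjusted permutation p = 1.1e-04, rho = 0.66). It had r = 0.56 with Lgr4 (adjusted 1.1e-04, rho = 0.54), against 0.17 with Lgr5 (adjusted 0.307, rho = 0.23). For Lgr6, r was 0.67 in SCC and 0.83 in spindle carcinomas, 0.54 to 0.73 within the 4 origins, and 0.64 without the 2 farthest mice. The members of the list differed: of the 14 genes, Sox9 (0.71) and Nkd2 (0.59) alone had r above 0.50 with Lgr6, the median r was 0.17, and Tcf7l1 (-0.40) and Apc (-0.30) went the other way. With Lgr4, the same 2 genes were above 0.50 and the median was 0.14. Among the lists, Lgr5 had its highest r with the mean of 11 Wnt ligands (0.56, adjusted permutation p = 1.1e-04, rho = 0.58). This r was 0.59 without the 2 farthest mice and 0.42 to 0.85 within origins. Lgr4 and Lgr6 passed with this mean as well (r = 0.51 and 0.36, adjusted permutation p = 4.5e-04 and 0.0163). Of the 11 ligands, 1, Wnt5a, had r above 0.50 with Lgr5, and the median was 0.22. Lgr5 was also the receptor with r = 0.40 with 8 fibroblast genes (adjusted permutation p = 0.00654, rho = 0.38), where Lgr4 had -0.10 and Lgr6 0.19. With the 3 adipocyte genes, Lgr5 had r = 0.25 (adjusted permutation p = 0.124), rho = 0.34 (adjusted 0.025) and r = 0.49 without the 2 farthest mice, with 0.40 in spindle carcinomas and -0.12 in SCC. With 5 macrophage genes, r was -0.44 for Lgr4 (adjusted permutation p = 0.00221, rho = -0.44), -0.06 for Lgr5 and -0.22 for Lgr6. With 5 endothelial genes, Lgr5 had r = 0.33 (adjusted permutation p = 0.0311, -0.05 to 0.86 within origins), against 0.03 for both Lgr4 and Lgr6. With 3 melanocyte genes, Lgr4 had r = -0.31 (adjusted permutation p = 0.0479, -0.56 to 0.21 within origins), Lgr5 -0.08 and Lgr6 -0.24.

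The genes most like each receptor over the 55 mice were found by Pearson's r among the genes that passed the filter, as a description without a test. For Lgr4 they were Nkd2 (r = 0.75), the desmosomal cadherin Dsg2 (0.74), the calcium-activated channel Trpm4 (0.74), Wfdc18 (0.74) and Lratd2 (0.72). Slc35b4 (-0.69), the diacylglycerol lipase Dagla (-0.67) and Dnajc13 (-0.65) lay at the other end. Of 12790 other genes, 3.40% had r above 0.50 with Lgr4, as did 13 of 14 epithelial adhesion genes.

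For Lgr5 they were Spon1, a secreted matrix protein (0.77), Cpz, a carboxypeptidase with a Frizzled-like domain (0.75), the calcium channel Cacna1g (0.75), Lrrc15, a membrane protein known from activated fibroblasts (0.72), and Mfap4, a protein of elastic microfibrils (0.72). Syne3 (-0.63), the translation factor Eif4b (-0.62) and Pimreg (-0.62) lay lowest. Of the fibroblast list, 3 of 8 genes had r above 0.50 with Lgr5, as did 1.31% of all genes. The median of the list was 0.42, and its members differed, with Pdgfra (-0.16), Dcn (-0.01) and Lum (0.16) lowest. Cpz had r = 0.08 with Lgr4 and 0.27 with Lgr6. Of the pathway genes singled out after their values were seen, the Wnt inhibitor Sfrp2 had r = 0.62 and the non-canonical ligand Wnt5a r = 0.60 with Lgr5. Wnt5a also had r = 0.53 with Lgr6 and 0.36 with Lgr4, and Sfrp2 0.33 and 0.30.

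For Lgr6 they were Ramp1, a partner of the calcitonin receptor-like receptor (0.76), the Wnt receptor Fzd7 (0.73), Nav2 (0.72), Sox9 (0.71) and A130010J15Rik (0.71), and lowest Mcrip2 (-0.68), Fmc1 (-0.65) and the glutamine transporter Slc1a5 (-0.64). Of all genes, 1.49% had r above 0.50 with Lgr6. The other Lgr6 probe set gave r = 0.71 with Ramp1, 0.58 with Fzd7, 0.67 with Nav2, 0.54 with Sox9 and 0.70 with A130010J15Rik. Fzd7 had r = 0.71 with Lgr4 too, the 6th highest there, and Nkd2, the highest for Lgr4, had r = 0.59 with Lgr6 and was 61st. Sox9 had r = 0.65 with Lgr6 in SCC and 0.91 in spindle carcinomas. Further probe sets of the like genes gave lower values in places, down to 0.18 for Fzd7, -0.05 for Nav2 and 0.46 for Nkd2.

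**Figure D5:**
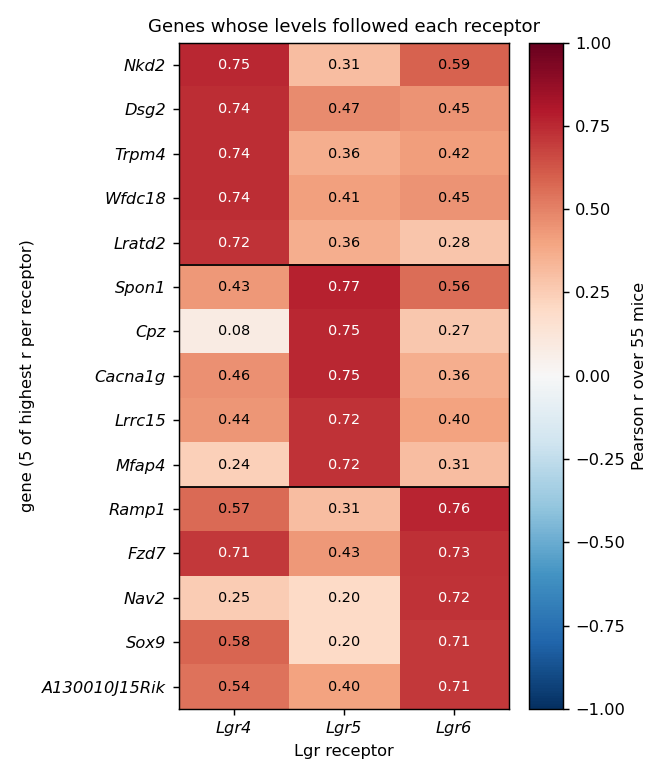
Pearson's r over 55 mice (colour and number) of the 5 genes most like each receptor (rows, in blocks for Lgr4, Lgr5 and Lgr6) with all 3 receptors (columns). Fzd7 had r of 0.71 with Lgr4 and 0.73 with Lgr6, whereas Cpz had 0.75 with Lgr5 and 0.08 with Lgr4.

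RNA quality, read as the 3′ minus 5′ difference of the Gapdh control probe sets, lay between -0.08 and 0.59 in p53 mutant mice and between -0.17 and 1.85 in the others, and its r with Lgr4, Lgr5 and Lgr6 was 0.10, 0.11 and 0.04 (permutation p of 0.449 or more). Its rho was 0.27, 0.17 and 0.16 (permutation p = 0.0444 for Lgr4, 0.133 adjusted over the 3 receptors), and r with Lgr4 was 0.21 without the 2 farthest mice.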

How the data were processed

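Biotin-labelled RNA (Trizol extraction, Qiagen clean-up) of each tumour was hybridised to an Affymetrix whole-genome mouse array. The authors deposited log2 values for each probe set, computed by RMA. That method subtracts background, forces the arrays to a common distribution and combines the probes, so a change shared by most transcripts of a tumour cannot be seen. The RMA version and a genome build are not given in the sources used here. Array medians lay between 4.43 and 4.56. No counts exist for arrays, whose number sets the precision.

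A single gene symbol was given for 34958 probe sets, several for 932 and none for 9211, and 34754 matched RefSeq names. The probe set with the highest mean represented a gene. Genes were tested if 8 or more arrays had them over the array median. Tumours of a mouse were averaged, so mice were the replicates. Groups were compared with limma 3.58.1 (lmFit, eBayes) in R 4.3.3 with Benjamini-Hochberg adjustment, after the script was tested on simulated data. SAM, which the study used, was not run. Correlations were tested two-sided with 100000 permutations in Python 3.11.15. Genes named were the receptors, up to 6 called genes per pathway list, the 5 highest and 3 lowest by r per receptor, and genes fixed by name. The members and lists were chosen with earlier results of these data known.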

Additional observations from a re-analysis of the deposited data

Results flagged for a closer look

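Among the 4 mice with p53 mutant spindle carcinomas, Lgr4 in spindle 4 lay far from the other animals. It was 6.46, whereas the nearest of the other mice was at 8.13, a gap of 0.89 of the group's whole range. The mouse of spindle 8 entered at 8.34, the mean of 6.37 in spindle 8 and 10.3 in spindle 9, so between single tumours spindle 4 did not lie apart, and spindle 8 was lower. Lgr6 in the same tumour was 8.21, within the range of 7.69 to 8.59 of that group. The rule was applied to each receptor in poorly differentiated SCC, tumours with no histology and p53 mutant SCC, and in spindle carcinomas of either p53 class. No other value was flagged, and chance flags about 1 in 20 groups of this kind.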

How the results depend on the processing

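Of 670 recomputed values of the receptors, the correlations and the gene counts, 623 were taken as unchanged. For the receptors and the correlations this meant the same direction and the same side of the threshold. A gene count has neither and was compared with the main count. Without the filter, 3251 against 3391 (spindle minus SCC) was taken as unchanged and 10 against 36 (p53) as moved. No paired analysis was possible because no mouse had tumours in both groups of a comparison. The p53 count of 36 genes was 10 without the filter, 13 with every tumour and mouse as a random effect, 23 with the mean of probe sets, 66 with every probe set tested, 10 with a common 75th percentile and 18 with origin as a covariate. It was 4 without arrays of unmatched sex markers, 8 without near-identical arrays, 3 with histology as a covariate, 14 in SCC mice and 8 with coat as a covariate, which was chosen after seeing the data. Leaving out a p53 mutant mouse, also chosen after seeing the data, gave 0 to 104 genes: 0 without SCC 38 or no histology 8, 1 without SCC 37, 5 without spindle 4, 6 without SCC 12, 10 without spindle 2 or SCC 36, 19 without SCC 5, 20 without SCC 2, 23 without no histology 1, 55 without spindle 6 and 104 without spindle 8. Lgr6 by p53 then ran from 1.65 to 1.94, Lgr5 by p53 from -0.19 to -0.05 and Lgr4 by p53 from 0.25 to 0.46. The spindle minus SCC count of 3391 was 5330 with every probe set and 0 against poorly differentiated SCC alone, where fewer mice entered, and 2876 to 3820 over 48 fits without 1 mouse. Over these fits, Lgr5 ran from -0.56 to -0.35, Lgr4 from -0.52 to -0.31 and Lgr6 from 0.24 to 0.62. Of the 20 named pathway genes called, 12 kept the call in all 48 fits and 8 lost it in at least 1. The agouti minus white count was 1 with histology as a covariate.

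Small differences and some small correlations changed sign, other correlations were lower without changing sign, and the cause was not tested. Poor minus moderate was 0.06 for Lgr4 with sex as a covariate, 0.16 for Lgr4 without near-identical arrays, -0.04 for Lgr5 with origin as a covariate and -0.16 for Lgr5 without arrays of unmatched sex markers. Without near-identical arrays, Lgr5 was 0.21 in poor minus well and 0.12 in moderate minus well. Resistant minus sensitive was -0.05 for Lgr6 without arrays of unmatched sex markers. Spindle minus SCC was -0.31 for Lgr6 against poorly differentiated SCC alone. p53 mutant minus not mutant was 0.09 for Lgr5 with histology as a covariate and 0.22 in SCC mice. In spindle minus SCC, Znrf3 was -0.03 and Axin2 -0.00 with the mean of probe sets, Axin2 was -0.00 without arrays of unmatched sex markers, and Znrf3 was -0.10 and Axin2 -0.13 against poorly differentiated SCC. The correlation of Lgr5 with Lgr6 kept its sign, at 0.24 with the mean of probe sets and 0.27 without mice of unmatched sex markers. The relations that follow were recomputed without those mice, an alternative added after seeing the data. Lgr6 changed sign with the mesenchymal mean (0.01), as did Lgr4 and Lgr5 with Rspo4 (-0.01 and -0.03). Lgr6 with epithelial adhesion (0.21) and Lgr4 with Znrf3 (0.37, adjusted permutation p = 0.093) kept their sign but did not pass.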
